A study of Homo sapiens with 8 samples.

Results

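The genes described here are 47 genes of DNA replication and nucleotide supply, taken by symbol from the 23368 gene names in the count files of an enzalutamide time course in U87MG cells. They fall into 7 roles: 5 origin licensing genes, 6 genes of the MCM2-7 helicase, 8 origin firing genes, 8 genes of polymerases and primase, 12 fork protein genes, 3 genes of chromatin assembly and histone mRNA, and 5 nucleotide enzymes. All 47 were found, and all 47 passed the filter on low counts that left 14448 genes for testing. The filter used the counts of all 8 libraries and not the values of any single comparison.

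U87MG is a human glioblastoma line, and enzalutamide is an androgen receptor antagonist used against prostate cancer. The series asked how the genes of this line respond to the drug. The 4 groups were untreated cells (control) and cells given enzalutamide for 4 h, 24 h or 48 h, with 2 libraries in each group. All groups were the same line in the same serum-containing medium. The labels name no dose, no vehicle, and no untreated cells kept for 4, 24 or 48 h, so drug and time in culture cannot be told apart. They also say that the cells were harvested after differentiation without describing one. No label ties a group's libraries to separate cultures, so each p-value rests on a spread that may be technical only.

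In each S phase a cell copies its genome once. In G1 the origin recognition complex, with CDC6 and CDT1, loads the MCM2-7 ring onto DNA, and geminin (GMNN) later holds CDT1 back. The kinase CDC7 with DBF4, together with MCM10, CDC45 and the GINS complex, turns the loaded ring into a moving helicase. Polymerase alpha with primase starts each strand, polymerases epsilon and delta extend it, and ribonucleotide reductase (RRM1, RRM2), thymidylate synthase (TYMS), thymidine kinase (TK1) and dUTPase (DUT) supply or guard the deoxynucleotide pool. Many of these genes are textbook targets of E2F transcription factors and are transcribed mainly around the G1/S transition.

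Library totals ran from 24620833 to 37162565 counts, and the 47 genes took 0.204% to 0.420% of them. Levels below are CPM (counts scaled to a common library size) after scaling by TMM, a method that sets libraries to a common scale from the bulk of their genes, and changes are log2 ratios from edgeR with their standard errors (SE). A gene was called higher or lower when its Benjamini-Hochberg adjusted p over all 14448 genes was under 0.05. Of 9 listed markers of astrocytes and glioma lines, 4 were above 1 CPM. VIM and CD44 were high in every library (VIM 5610 to 13600 CPM, CD44 1880 to 2950 CPM). CHI3L1 was at 88.8 and 102 CPM in the controls and 192 and 209 at 4 h, and NES at 25.2 and 27.1 CPM in the controls, 40.9 and 43.3 at 24 h, then 10.9 and 13.2 at 48 h. The others of this list were near or at 0. GFAP, S100B, SOX2 and FABP7 were at or under 0.633, 0.323, 0.0288 and 0.173 CPM, and AQP4 was 0 in all 8 libraries. The myelin marker MOG, the immune markers CD3E and AIF1 and the globins HBB and HBA1 were 0 throughout, and no immune, epithelial or erythroid marker passed 1 CPM. The summed neuron markers, 3 of 5 above 1 CPM, were at 45.4 to 47.7 CPM in the controls and 28.5 to 28.8 CPM at 48 h. Of these, SNAP25 was at 31.5 and 31.6 CPM in the controls and 16.1 and 14.8 at 48 h, MAP2 at 10.3 and 9 against 6.26 and 7.63, and SYT1 at 5.41 and 4.37 against 6.09 and 6.15. The summed endothelial markers, of which KDR was the 1 of 4 above 1 CPM, were at 17.3 to 18.1 CPM in the controls and 4.02 to 5.16 CPM at 48 h. Whether either has a part in the results below was not tested.

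The 48 h libraries stood apart from the others. Their TMM factors were 0.870 and 0.899 against 1.07 and 1.08 in the controls, and 66.9% of all genes were called at 48 h, against 28.6% at 4 h and 22.3% at 24 h. Calls at 48 h that changed with library totals as the only scaling are therefore given below, and pairs of genes are compared as ratios of counts within a library, which no scaling moves.

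Since many of these genes are known E2F targets, their promoter windows were read for E2F-type letters. RefSeq promoter windows (GRCh38.p14, 250 bases before to 50 after a start) were matched by symbol for 41 of the 47 genes. MCM4, MCM5, GINS4, POLD3, RPA2 and RPA3 had no window. Either strand was searched for TTTGGCGC, TTTCCCGC, TTTCGCGC and TTTGCCGC, and 21 of the 41 genes (51.2%) held at least 1 of them, against 3.99% of all 27305 genes with windows and 5.32% of the 14060 of those that are in the count files. CCAAT was in 23 of 41 (56.1%) against 39.7% of all genes and 42.3% of those in the count files. TTTGAA, the core of the element known from mitotic genes, was in 3 of 41 (7.32%) against 18.2% and 15.9%. TGATGNAA, a form bound by stress factors of the C/EBP and ATF families, was in 0 of 41 against 4.46% and 3.61%. The last 3 searches also used both strands. A match is a description of these letters and not of a bound site. Only stretches that hold a match are printed. The stretches below, read 5′ to 3′ on the strand of the gene, come from members called higher, lower or not called at 48 h and from the pairs MCM6 and MCM7, CDT1 and GMNN, and POLA1 and POLA2, whose values are compared below. Capitals mark the E2F-type letters, which read GCGGGAAA or GCGCCAAA where the match is on the other strand. In MCM6 a pair of matches, 1 on each strand, overlaps and gives 1 run of capitals, whose end GCGCGAAA is TTTCGCGC on the other strand.
MCM6, chr2:135876560-135876619, minus strand: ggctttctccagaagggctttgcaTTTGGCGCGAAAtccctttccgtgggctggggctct
MCM3, chr6:52284883-52284942, minus strand: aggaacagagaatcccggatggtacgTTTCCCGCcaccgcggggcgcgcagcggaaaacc
MCM7, chr7:100101566-100101595, minus strand: cagctcggaccGCGGGAAAcccggcgcctg
CDC7, chr1:91501035-91501094, plus strand: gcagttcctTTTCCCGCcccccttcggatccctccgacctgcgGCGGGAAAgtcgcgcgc
CDT1, chr16:88803743-88803772, plus strand: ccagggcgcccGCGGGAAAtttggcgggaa
GMNN, chr6:24775307-24775366, plus strand: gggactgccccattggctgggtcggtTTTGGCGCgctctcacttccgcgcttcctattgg
POLA1, chrX:24693755-24693814, plus strand: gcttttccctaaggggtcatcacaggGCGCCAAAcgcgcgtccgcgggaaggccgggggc
POLA2, chr11:65261898-65261927, plus strand: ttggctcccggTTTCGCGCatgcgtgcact
PCNA, chr20:5126648-5126707, minus strand: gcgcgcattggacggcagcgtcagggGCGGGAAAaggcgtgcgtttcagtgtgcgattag
TYMS, chr18:657603-657632, plus strand: gcgggacggccGCGGGAAAaggcgcgcgga
DUT, chr15:48332151-48332180, plus strand: gctgGCGGGAAAtttcggtTTTGGCGCgct

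The stretches of MCM7, CDT1, POLA2, TYMS and DUT overlap an exon of some GENCODE transcript, and the others lie outside annotated exons. Genes with and without the letters were found on each side at 48 h: of genes with a window, 5 of 11 called higher, 12 of 18 called lower and 4 of 12 not called had a match. No test was made of this split.

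At 4 h the set was low: 37 of the 47 genes (78.7%) were called lower and 0 higher, where 13.6% of all genes were called lower and 15.0% higher. At 24 h it was high: 40 of 47 (85.1%) were called higher and 0 lower, where 12.9% of all genes were called higher and 9.39% lower. The median log2 change was -0.52 at 4 h and 0.60 at 24 h, beside medians over all genes of 0.00 and 0.01. No member changed by 2-fold or more at 4 h, where 2.44% of all genes were called higher and 1.63% lower by that much, and 6 rose by 2-fold or more at 24 h, where 1.69% of all genes did. These are bulk libraries, in which fewer cells in S phase and less RNA per cell cannot be told apart.

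The libraries themselves showed the same order. The 47 genes took 0.283% and 0.277% of counts in the controls, 0.204% and 0.211% at 4 h, 0.417% and 0.420% at 24 h, then 0.239% and 0.222% at 48 h. For 42 genes both 4 h libraries lay below both controls, as they did for 34.5% of all genes, and for 3 genes both lay above, as for 34.1% of all genes. For 46 genes both 24 h libraries lay above both controls, as they did for 35.6% of all genes, and the exception was GINS3.

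**Figure D1:**
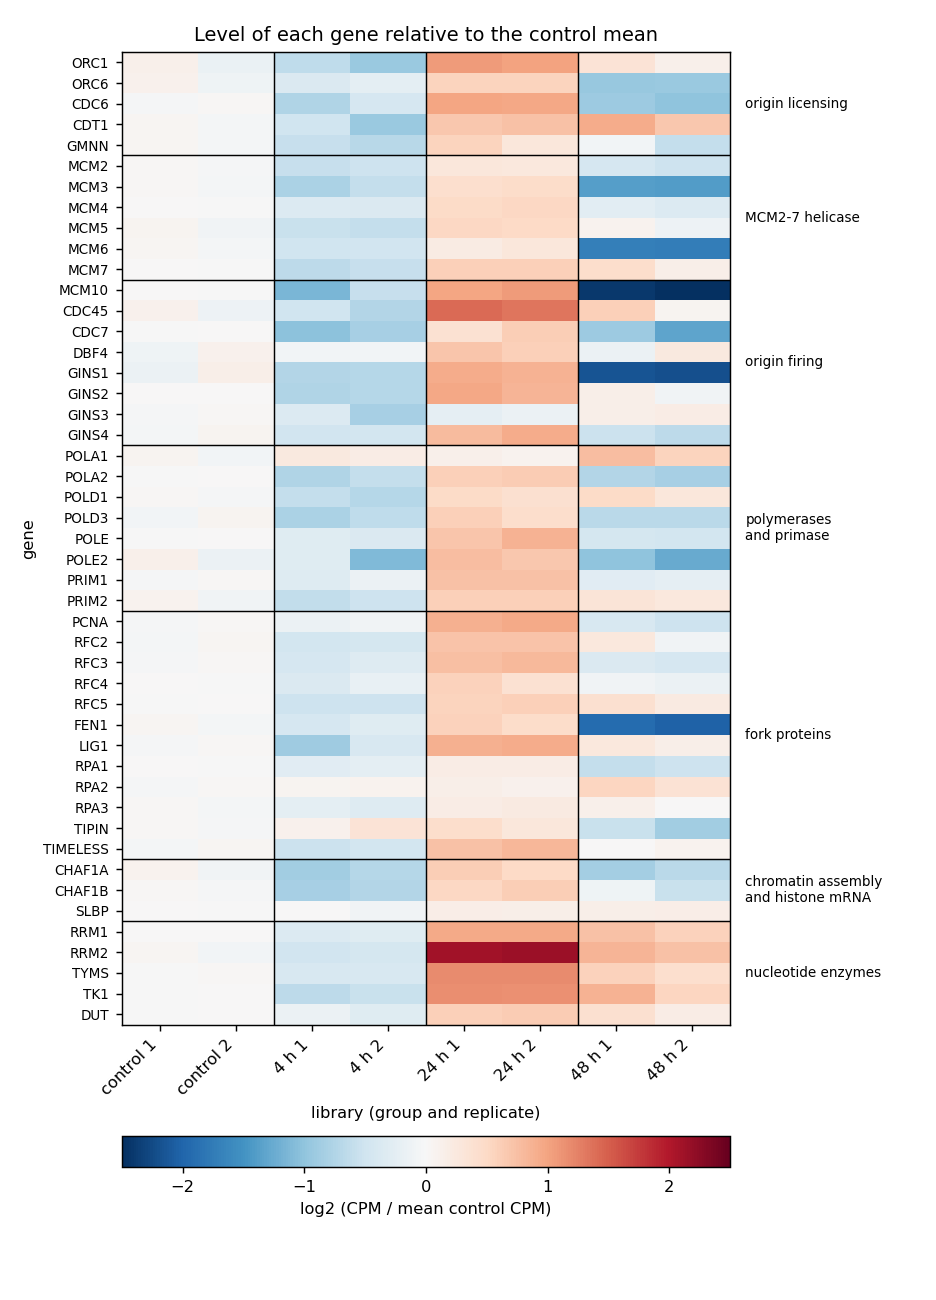
Each gene's CPM in each of the 8 libraries as a log2 ratio to its mean control CPM, with genes in rows grouped by role and libraries in columns by group. Most genes are below the controls in both 4 h libraries and above them in both 24 h libraries (46 of 47), while at 48 h the rows divide.

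At 48 h the set divided, with 12 genes called higher and 21 lower. In all 70.2% of the members were called, which is near the 66.9% of all genes, so the number of calls is no result about these genes. The share called higher was 25.5% beside 33.3% of all genes, and the share called lower was 44.7% beside 33.5%, and these shares are also the background of the 48 h counts by role below. The median log2 change was -0.12 beside -0.02 over all genes, but single genes ran from -2.48 (MCM10) to 0.80 (CDT1 and RRM2). Over all genes the 10th to 90th percentile at 48 h ran from -1.46 to 0.77, and most members lay inside that range. At 48 h 0 members rose by 2-fold or more, where 5.30% of all genes did. A fall of 2-fold or more at 48 h was called for 7 of the 47 members. That share is near the 15.8% of all genes, so this number is also no result about the set. Of the 7, 3 are origin firing genes, 2 are MCM subunits, 1 is a polymerase subunit and 1 is FEN1.

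Between the treated times, 43 of 47 genes were higher at 24 h than at 4 h, with a median of 1.15 on the log2 scale, where 21.2% of all genes were higher, 20.3% lower and the median was -0.01. In that step 31 rose by 2-fold or more and 0 fell as much, where 4.18% and 3.77% of all genes did. From 24 h to 48 h 40 of 47 (85.1%) were lower and 3 higher, where 66.8% of all genes were called, 35.3% lower and 31.5% higher. In this step 19 fell by 2-fold or more and 0 rose as much, where 16.1% and 5.52% of all genes did. The median of that step was -0.80, beside -0.07 over all genes. These steps share libraries with the comparisons against the controls. Over the 3 comparisons with control, 17 genes were called lower, then higher, then lower, and 9 were called lower, then higher, then higher. A further 8 were called lower, then higher, and were not called at 48 h. The share of all genes with each of these patterns was not counted. SLBP was the 1 gene not called at any time.

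**Figure D2:**
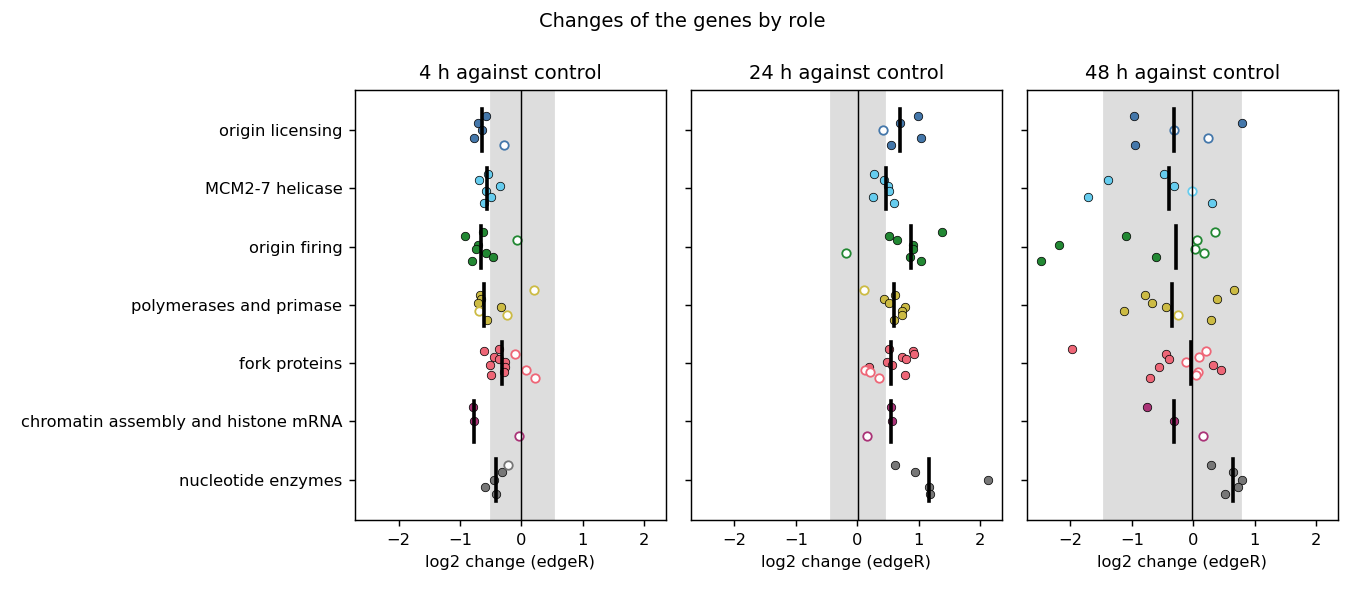
The log2 change against control by edgeR at 4 h, 24 h and 48 h, 1 point per gene, with roles in rows; filled points passed the adjusted p threshold of 0.05, black bars are role medians, and grey bands hold the 10th to 90th percentile of all 14448 genes. Role medians run from -0.78 to -0.32 at 4 h and from 0.47 to 1.16 at 24 h, and at 48 h the nucleotide enzymes (0.65) are the only role with a median above 0.

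The origin licensing genes fell at 4 h (4 of 5 called, median -0.64) and rose at 24 h (4 of 5, median 0.70), and at 48 h the loading factors went apart. ORC1, the largest ATPase subunit of the origin recognition complex, had the largest change of the role at both early times. Its level was 15.7 and 12.8 CPM in the controls, 9.24 and 7.5 at 4 h, 30 and 28.8 at 24 h, then 18.1 and 15.6 at 48 h. The 4 h libraries lay below and the 24 h libraries above both controls, while 48 h overlapped them. The log2 changes were -0.78 (SE 0.14, adjusted p = 0.00203), 1.04 (SE 0.13, adjusted p = 0.000234) and 0.24 (SE 0.13, adjusted p = 0.132).

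CDC6 and CDT1 load the helicase together, and they were on opposite sides of the controls at 48 h. CDC6 was at 39.1 and 40.9 CPM in the controls, 23.7 and 29.8 at 4 h, 79.0 and 78.7 at 24 h, then 21.2 and 19.8 at 48 h. CDT1 was at 30.5 and 28.4 CPM in the controls, 21.0 and 15.5 at 4 h, 46.8 and 49.0 at 24 h, then 55.9 and 46.8 at 48 h. No treated group of either gene overlapped the controls. At 48 h CDC6 was lower (-0.97, SE 0.10, adjusted p = 8.47e-06), and CDT1 was higher (0.80, SE 0.13, adjusted p = 0.00018). The ratio of CDT1 to CDC6 counts within a library was 0.779 and 0.695 in the controls, 0.889 and 0.521 at 4 h, 0.592 and 0.623 at 24 h, then 2.64 and 2.37 at 48 h. The 48 h libraries alone had more CDT1 than CDC6 counts.

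ORC6, a small subunit of the origin recognition complex, went from 19.8 and 17.2 CPM in the controls to 27.1 and 27.1 at 24 h and 9.60 and 9.66 at 48 h. It was not called at 4 h (-0.29, adjusted p = 0.0577) and was lower at 48 h (-0.94, SE 0.11). GMNN, the inhibitor of CDT1, was scarce, at 8.98 and 8.31 CPM in the controls and 8.20 and 5.74 at 48 h. It was called at 4 h (-0.64, adjusted p = 0.0202), a call lost when any 1 control or 4 h library was left out, and it was not called at 24 h or 48 h. Counts of CDT1 over GMNN were 3.39 and 3.42 in the controls and 6.82 and 8.16 at 48 h, the highest of the 8 libraries.

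All 6 genes of the MCM2-7 helicase, which form a ring of 1 copy each, fell at 4 h (median -0.56) and rose at 24 h (median 0.47). At 48 h 4 were lower, MCM7 was higher and MCM5 was not called. MCM6 fell most. It was at 137 and 129 CPM in the controls, 93.6 and 95.4 at 4 h, 154 and 162 at 24 h, then 40.9 and 40.1 at 48 h. The change at 48 h was -1.71 (SE 0.07, adjusted p = 4.57e-09), or 3.28-fold lower. MCM3 was at 155 and 146 CPM in the controls, 87.3 and 99.4 at 4 h, 202 and 208 at 24 h, then 58.1 and 57.1 at 48 h, a change of -1.39 (SE 0.07). Both 48 h libraries of both genes lay below every other library.

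MCM7 had the largest rise of the ring at 24 h. It was at 176 and 172 CPM in the controls, 111 and 117 at 4 h, 263 and 264 at 24 h, then 235 and 193 at 48 h. Its 48 h libraries lay between those of 24 h and the controls, with a change of 0.30 (SE 0.08, adjusted p = 0.008). This call was lost without control replicate 2 (adjusted p = 0.0524) and by library totals alone (0.02, adjusted p = 0.855). MCM2 and MCM4 were lower at 48 h by smaller amounts (-0.47 and -0.31), and MCM5 was at 124 and 111 CPM in the controls and 125 and 108 at 48 h. The rises of MCM2 (0.27) and MCM6 (0.25) at 24 h were not called once a single control or 24 h library was left out, for MCM6 in 3 of 4 cases.

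The ring's subunits were less even at 24 h than in the controls and least even at 48 h. Per kilobase of annotated exon, mean control levels were 38.4 (MCM2), 47.0 (MCM3), 38.0 (MCM4), 33.4 (MCM5), 35.6 (MCM6) and 47.6 (MCM7) CPM. In the same order they were 26.3, 29.1, 29.9, 22.4, 25.3 and 31.2 CPM per kilobase at 4 h. At 24 h they were 46.4, 63.8, 53.9, 47.5, 42.3 and 72.0, and at 48 h 27.9, 17.9, 30.8, 32.8, 10.8 and 58.6. Counts of MCM6 over MCM7 were 0.779 and 0.747 in the controls, 0.840 and 0.818 at 4 h, 0.587 and 0.613 at 24 h, then 0.174 and 0.208 at 48 h. MCM3 over MCM7 went from 0.882 and 0.850 in the controls to 0.247 and 0.296 at 48 h. MCM7 shares 10.7% of its exon bases with AP4M1 on the other strand, and MCM2 shares 30.7% with an antisense model, and no source used here says that counting was by strand. All 4 genes of the ring with a promoter window (MCM2, MCM3, MCM6 and MCM7) held E2F-type letters. The stretches printed above were chosen to hold them.

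The origin firing genes had the widest range at 48 h, from -2.48 to 0.35. At 4 h 7 of 8 were lower and at 24 h 7 of 8 were higher, and at 48 h 4 were lower and 0 higher. MCM10, which helps to activate the loaded helicase, fell furthest of all 47 genes. It was at 16.3 and 16.0 CPM in the controls, 7.32 and 10.9 at 4 h, 32.1 and 33.9 at 24 h, then 3.06 and 2.72 at 48 h. The groups did not overlap at any of the 3 times. The change at 48 h was -2.48 (SE 0.18, adjusted p = 4.21e-07), or 5.58-fold lower, and from 24 h to 48 h it was -3.51 (SE 0.18), which ranked 91 from the lowest of 14448 genes.

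CDC45, which becomes part of the moving helicase, had the largest rise of the role. It was at 20.8 and 17.6 CPM in the controls, 13.6 and 11.6 at 4 h, 51.2 and 48.8 at 24 h, then 29.1 and 20.0 at 48 h. The 24 h change was 1.38 (SE 0.15, adjusted p = 0.000109), or 2.61-fold. The 48 h libraries were far apart and the lower of them overlapped the controls (0.35, adjusted p = 0.0662). CDC7, the kinase that fires origins, fell most at 4 h of all 47 genes. It was at 8.16 and 8.34 CPM in the controls, 4.08 and 4.62 at 4 h, 10.8 and 12.6 at 24 h, then 4.39 and 3.33 at 48 h. Its changes were -0.92 (SE 0.16, adjusted p = 0.00172) at 4 h and -1.09 (SE 0.16, adjusted p = 0.000125) at 48 h. The rise at 24 h (0.51, adjusted p = 0.0298) was not called without any 1 of the control or 24 h libraries. DBF4, the activating subunit of CDC7, took another course: 16.2 and 18.8 CPM in the controls, 16.6 and 16.6 at 4 h, 28.2 and 26.5 at 24 h, then 15.8 and 20.6 at 48 h. It was called at 24 h alone (0.64, adjusted p = 0.00427), a call lost without control replicate 1.

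The 4 GINS genes encode 1 complex of equal parts, and they did not move alike at 48 h. GINS1 was at 7.79 and 9.55 CPM in the controls, 5.24 and 5.32 at 4 h, 16.6 and 15.8 at 24 h, then 1.94 and 1.89 at 48 h. GINS2 was at 15.8 and 15.8, 9.36 and 9.62, 30.7 and 28.5, and 17.6 and 14.8 CPM in the same order. GINS1 was 4.52-fold lower at 48 h (-2.18, SE 0.16, adjusted p = 5.1e-07), and the 48 h libraries of GINS2 lay on both sides of the controls (0.03, adjusted p = 0.793). Counts of GINS1 over GINS2 were 0.493 and 0.603 in the controls, between 0.541 and 0.560 at 4 h and 24 h, and 0.110 and 0.128 at 48 h. GINS4 was also lower (-0.60, SE 0.10). GINS3 was the 1 member of the role without a rise at 24 h (12.4 and 13 CPM in the controls, 10.8 and 11.5 at 24 h, adjusted p = 0.376), and its fall at 4 h (-0.58) was lost without either control or without 4 h replicate 2.

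Among polymerases and primase 5 of 8 genes were lower at 4 h, 7 of 8 higher at 24 h, and at 48 h 3 were higher (37.5%) and 4 lower (50%), where 33.3% and 33.5% of all genes were; by library totals alone these counts were 1 and 5. The subunits of the polymerase that starts each strand parted. POLA1, the catalytic subunit of polymerase alpha, was at 227 and 208 CPM in the controls, 256 and 247 at 4 h, 236 and 231 at 24 h, then 372 and 319 at 48 h. POLA2, its accessory subunit, was at 31.5 and 32.2, 19.0 and 21.0, 47.8 and 49.2, and 19.2 and 17.8 CPM. POLA1 rose at 48 h alone (0.67, SE 0.08, adjusted p = 1.84e-05), and POLA2 fell at 4 h (-0.67), rose at 24 h (0.61) and fell at 48 h (-0.78, SE 0.09, adjusted p = 1.15e-05). Counts of POLA2 over POLA1 were 0.139 and 0.155 in the controls, 0.0743 and 0.0850 at 4 h, 0.202 and 0.213 at 24 h, then 0.0517 and 0.0558 at 48 h. POLA1 had 39.6 CPM per kilobase in the controls and POLA2 8.49. Of the POLA2 exon bases 53.7% are shared with another protein-coding model on the same strand, which is not in the count files. POLA1 was not called at 4 h in the fit of all libraries (0.21, adjusted p = 0.0679) but was called higher in a fit without the 48 h libraries (adjusted p = 0.00585).

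POLD1 and POLE are the catalytic subunits of polymerases delta and epsilon, which copy mainly the lagging and the leading strand. POLD1 was at 46.6 and 45 CPM in the controls, 30.3 and 27.9 at 4 h, 63.8 and 60.4 at 24 h, then 63.4 and 55.8 at 48 h. POLE was at 41.5 and 42, 33.8 and 32.5, 67.4 and 76.3, and 30.8 and 30.6 CPM. At 48 h POLD1 was higher (0.38, adjusted p = 0.00175; 0.10, adjusted p = 0.271, by library totals alone) and POLE was lower (-0.44, adjusted p = 0.000514). POLE over POLD1 counts were 0.890 and 0.935 in the controls and 0.487 and 0.549 at 48 h. POLE2, the second epsilon subunit, was scarce and fell most of the role: 5.16 and 4.26 CPM in the controls, 8.06 and 7.52 at 24 h, then 2.35 and 1.96 at 48 h (-1.13, SE 0.25, adjusted p = 0.0018). Its rise at 24 h (0.73) was not called without any 1 of the control or 24 h libraries. POLD3, a delta subunit, fell, rose and fell (-0.71, 0.52 and -0.67). Its rise was not called without control replicate 1 or 24 h replicate 1. Of the primase subunits, PRIM1 was higher at 24 h alone (0.73), and PRIM2 was lower at 4 h (-0.56) and higher at 24 h (0.59) and 48 h (0.29). The 48 h rise of PRIM2 was lost without control replicate 2 (adjusted p = 0.143) and by library totals alone (0.01, adjusted p = 0.907).

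The fork proteins had the smallest median fall at 4 h (-0.32, 9 of 12 called lower), rose at 24 h (median 0.55, 9 of 12) and were split at 48 h (2 higher, 5 lower, median -0.04). FEN1, the nuclease that trims Okazaki fragments, was at 61.4 and 57.2 CPM in the controls, 44.2 and 48.3 at 4 h, 88.1 and 82.0 at 24 h, then 15.7 and 14.7 at 48 h. LIG1, the ligase that then joins the fragments, was at 18.3 and 19.2, 10.1 and 14.2, 35.0 and 35.6, and 22.6 and 20.8 CPM. FEN1 was 3.91-fold lower at 48 h (-1.97, SE 0.09, adjusted p = 1.13e-08), and LIG1 was not called (0.21, adjusted p = 0.175), though both its 48 h libraries lay above both controls. FEN1 over LIG1 counts were 3.35 and 2.97 in the controls, 4.37 and 3.39 at 4 h, 2.52 and 2.30 at 24 h, then 0.693 and 0.705 at 48 h. LIG1 had the largest fall of the fork proteins at 4 h (-0.61, SE 0.14, adjusted p = 0.0066), which was not called without control replicate 2 or 4 h replicate 1.

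PCNA, the sliding clamp, was nearly level at 4 h and rose most of the fork proteins at 24 h. It was at 43.5 and 45.1 CPM in the controls, 40.2 and 41.7 at 4 h, 82.2 and 84.9 at 24 h, then 33.7 and 31.1 at 48 h. The changes were -0.11 (adjusted p = 0.279), 0.92 (SE 0.07, adjusted p = 1.03e-05) and -0.45 (SE 0.07, adjusted p = 0.000222). The clamp loaders RFC2, RFC3, RFC4 and RFC5 all fell at 4 h (-0.52 to -0.27) and rose at 24 h (0.48 to 0.79). Of these 4 falls, those of RFC2, RFC3 and RFC4 were each lost without at least 2 of the libraries taken singly. The 24 h rise of RFC4 was lost without 24 h replicate 1. At 48 h RFC3 was lower (-0.39) and RFC5 higher (0.32; 0.04, adjusted p = 0.682, by library totals alone).

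RPA1, RPA2 and RPA3 form the complex that coats single-stranded DNA. RPA1 was at 151 and 148 CPM in the controls, 124 and 126 at 4 h, 170 and 171 at 24 h, then 99.9 and 105 at 48 h. RPA2 was at 62.7 and 64.8, 67.0 and 67.5, 70.6 and 69.1, and 92.2 and 82.5 CPM. At 48 h RPA1 was lower (-0.55, SE 0.06, adjusted p = 9.31e-06) and RPA2 higher (0.45, SE 0.07, adjusted p = 0.000171). RPA1 over RPA2 counts were 2.41 and 2.29 in the controls and 1.08 and 1.27 at 48 h. The 24 h rise of RPA1 (0.19, adjusted p = 0.039) was lost without any 1 of the control, 4 h or 24 h libraries. RPA3 was called at 4 h alone (-0.28), and that call was lost without any 1 of the same libraries. RPA2 has 3 named pseudogenes, as does PCNA, and reads of near-identical copies may have been split. TIPIN and TIMELESS, partners that protect stalled forks, also parted. TIMELESS fell at 4 h (-0.49), rose at 24 h (0.78) and was at 56.0 and 59.4 CPM at 48 h against 54.0 and 57.8 in the controls. TIPIN was called at 48 h alone, from 12.9 and 12.3 CPM to 8.54 and 6.87 (-0.71, SE 0.14).

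CHAF1A and CHAF1B, subunits of the factor that places histones on new DNA, had nearly equal falls at 4 h. CHAF1A was at 45.7 and 40.8 CPM in the controls, 23.6 and 26.5 at 4 h, 65.9 and 60.6 at 24 h, then 24.1 and 27.0 at 48 h. Its changes were -0.79 (SE 0.10, adjusted p = 0.000167), 0.55 (SE 0.09, adjusted p = 0.00187) and -0.76 (SE 0.10, adjusted p = 3.67e-05). CHAF1B was at 25.8 and 24.6, 14.1 and 15.1, 35.9 and 38.4, and 23.3 and 17.2 CPM. It fell at 4 h (-0.78, adjusted p = 0.00116) and rose at 24 h (0.56), a rise not called without either control or without 24 h replicate 2. Its 48 h change (-0.31, adjusted p = 0.0477) was lost in 7 of the 8 fits that left out 1 library. SLBP binds the stem-loop of replication-dependent histone mRNAs, and it stayed between 66.3 and 79.4 CPM in all 8 libraries.

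The nucleotide enzymes had the highest median of the roles at 24 h (1.16) and were the 1 role with every gene called higher at 48 h (5 of 5, median 0.65, where 33.3% of all genes were called higher; 4 of 5, without DUT, by library totals alone). RRM2 is the small subunit of ribonucleotide reductase, made mainly in S phase. It was at 89.4 and 82.5 CPM in the controls, 62.1 and 63.6 at 4 h, 369 and 377 at 24 h, then 156 and 143 at 48 h. No group overlapped another. The 24 h change was 2.12 (SE 0.07, adjusted p = 7e-08), or 4.34-fold, which ranked 21 from the highest of 14448 genes. At 4 h it was -0.45 (SE 0.07) and at 48 h 0.80 (SE 0.07, adjusted p = 1.39e-06).

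RRM1, the large subunit, was at 158 and 159 CPM in the controls, 125 and 128 at 4 h, 305 and 303 at 24 h, then 263 and 234 at 48 h. Its changes were -0.32 at 4 h (adjusted p = 0.00438, and 0.0512 without 4 h replicate 1), 0.94 at 24 h (SE 0.07) and 0.65 at 48 h (SE 0.07, adjusted p = 5.88e-06). The subunits work together. Counts of RRM2 over RRM1 were 0.567 and 0.520 in the controls, 0.497 and 0.497 at 4 h, 1.21 and 1.25 at 24 h, then 0.594 and 0.612 at 48 h. Per kilobase of exon RRM1 went from 47.0 CPM in the controls to 90.5 at 24 h, and RRM2 from 22.3 to 96.7. Against RRM2B, the p53-inducible small subunit, RRM2 counts were 0.848 and 0.739 in the controls and 2.55 and 2.41 at 24 h. RRM2 shares 27.9% of its exon bases with another protein-coding model on the same strand, which is not in the count files. It has 3 named pseudogenes.

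TYMS and TK1 make thymidine nucleotides from scratch and by salvage. TK1 was at 73.1 and 73.5 CPM in the controls, 46.5 and 50.1 at 4 h, 165 and 162 at 24 h, then 134 and 107 at 48 h. Its changes were -0.60 (SE 0.09, adjusted p = 0.000812), the largest fall of the enzymes, then 1.16 (SE 0.09) and 0.72 (SE 0.09, adjusted p = 3.82e-05). TYMS was at 17.8 and 18.3, 13.6 and 13.7, 40.6 and 41.0, and 27.0 and 24.2 CPM, with 1.18 at 24 h and 0.51 at 48 h. Its 4 h fall (-0.41, adjusted p = 0.0076) was lost without control replicate 2 or 4 h replicate 1. In TYMS 58.2% of exon bases overlap ENOSF1 on the other strand, so reads that lie within the shared bases cannot be told apart without strand. DUT, which removes dUTP, was at 52.8 and 53.1 CPM in the controls, 79.9 and 82.2 at 24 h and 69.6 and 60.2 at 48 h. Its 48 h rise (0.29, adjusted p = 0.0104) was lost without control replicate 1 or 48 h replicate 1, and by library totals alone (0.01, adjusted p = 0.892). DUT has 8 named pseudogenes.

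**Figure D3:**
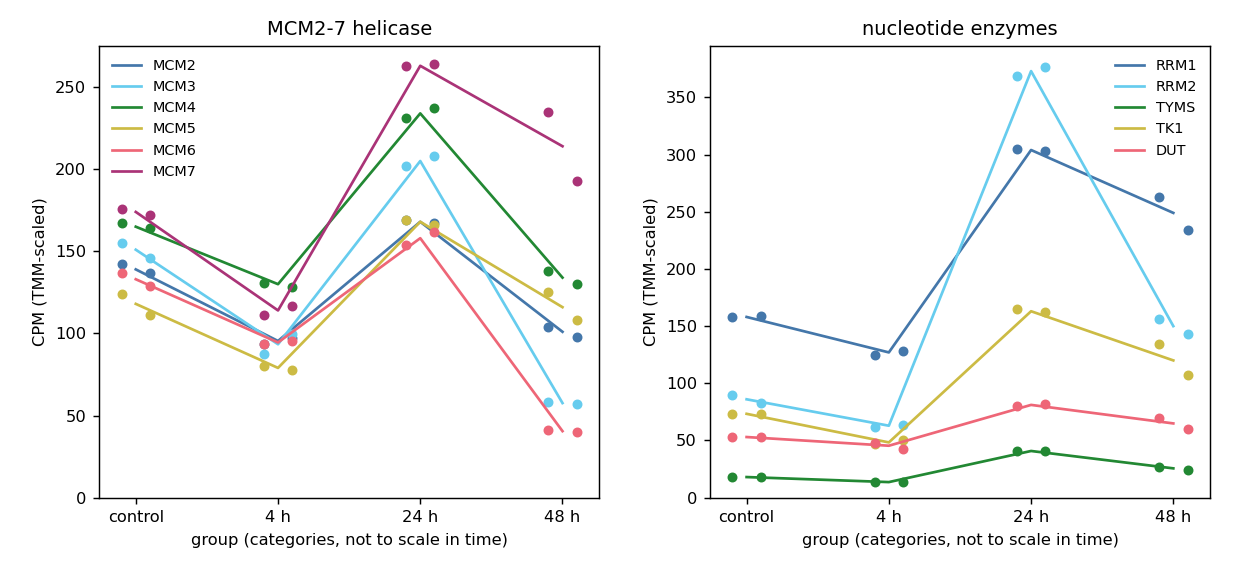
CPM after TMM scaling of the MCM2-7 genes and the nucleotide enzymes in each library (points), with lines through the group means of 2 libraries, at control, 4 h, 24 h and 48 h. MCM6 and MCM3 end at 48 h below every other group, while the nucleotide enzymes stay above their controls, RRM2 at 156 and 143 CPM.

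By library totals as the only scaling, the median of all genes moved to -0.30 at 48 h, and the split of all calls moved from 49.8% to 29% higher. The members' split at 48 h then was 7 higher and 27 lower, in place of 12 and 21. Most calls over all genes were lower too under this scaling, so the 27 are no result about the members. The 7 were CDT1 (0.52), RRM2 (0.52), TK1 (0.43), POLA1 (0.39), RRM1 (0.37), TYMS (0.23) and RPA2 (0.17), and 4 of 5 nucleotide enzymes were among them. Lower only under this scaling were MCM5 (-0.30), GMNN (-0.59), PRIM1 (-0.53), RFC4 (-0.39), RPA3 (-0.21) and TIMELESS (-0.23). At 4 h the split became 0 higher and 40 lower, and at 24 h 38 higher and 0 lower. The share of higher calls over all genes then was 38.2% at 4 h and 41.4% at 24 h, in place of 52.4% and 57.9%. The share of all genes called is not given for this scaling, so these counts show only how the members' calls moved with it.

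**Figure D4:**
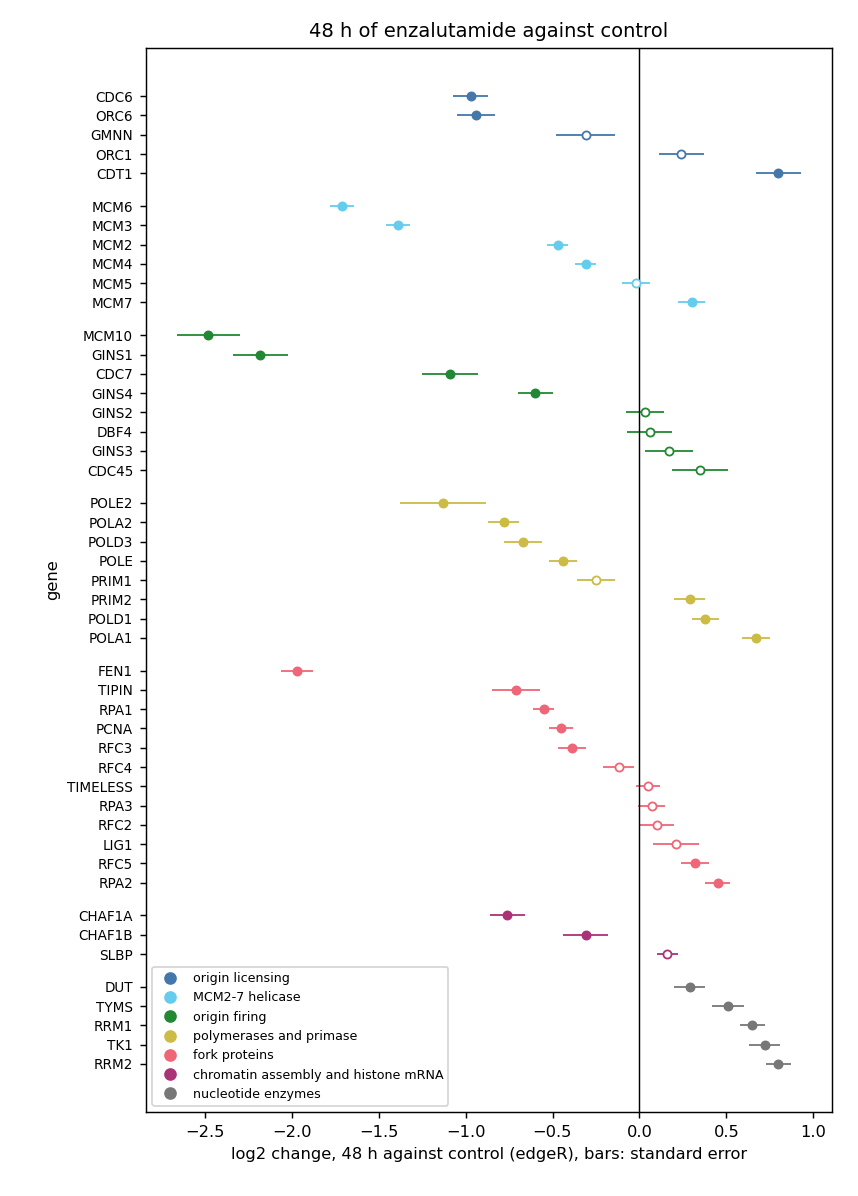
The log2 change at 48 h against control by edgeR for each of the 47 genes, with bars of 1 SE either side and filled points for genes with an adjusted p under 0.05. The genes run from MCM10 at -2.48 to CDT1 and RRM2 at 0.80, with members of most roles on both sides of 0.

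Other genes of the pathway gave the following counts, to be read beside the shares of all genes given above (13.6% lower and 15.0% higher at 4 h, 12.9% higher at 24 h, 33.3% higher and 33.5% lower at 48 h). Of 37 other replication factors, 14 were lower and 2 higher at 4 h (median -0.21), 23 higher and 0 lower at 24 h (median 0.35), and 15 higher and 15 lower at 48 h (40.5% each, median -0.05). The genes with the smallest p were TOP2A, ASF1B, WDHD1 and RFC1 at 4 h (-0.94, -0.64, -0.57 and -0.40). At 24 h they were TOP2A (1.42), WDHD1 (1.04), ASF1B (1.03) and DONSON (0.99). TOP2A is the topoisomerase that untangles replicated DNA, ASF1B hands histones to the CHAF1 complex, and WDHD1 tethers polymerase alpha to the helicase. At 48 h CHTF8, a subunit of an alternative clamp loader, was lower (-2.40, SE 0.09), and TOP2A (1.24), POLE3 (0.98) and SSRP1 (0.70) were higher.

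Of 29 other nucleotide synthesis genes, 6 were lower and 4 higher at 4 h (median -0.05), 12 higher and 0 lower at 24 h (median 0.15), and 17 higher and 7 lower at 48 h (median 0.31). SHMT1, an enzyme of one-carbon metabolism, fell at 4 h (-0.48) and rose at 24 h (0.73). CTPS2 fell (-0.62) and UMPS rose (0.46) at 4 h. RRM2B (0.47) and PAICS (0.39) rose at 24 h. At 48 h SAMHD1, which breaks down deoxynucleotides, was lower (-1.11, SE 0.10), UMPS was lower (-0.89), and GMPS (0.64) and DCTD (0.50) were higher.

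The E2F and G1/S regulators were low at 4 h (6 of 12 lower, 0 higher, median -0.20), high at 24 h (11 higher, 0 lower, median 0.62), and at 48 h 8 were lower (66.7%, beside 33.5% of all genes) and 4 higher (33.3%, the share of all genes), with a median of -0.90. E2F1, an activator of S phase genes, was at -0.39, 0.98 and 0.50 at the 3 times. E2F2 was at -1.92, 1.47 and -3.85, E2F8 at -1.56, 1.61 and -2.52, and CCNE2, a cyclin of S phase entry, at -0.68, 0.46 and -3.75. These last genes were near the floor at 48 h: E2F2 at 0.34 and 0.309 CPM, E2F8 at 1.43 and 1.24, CCNE2 at 0.953 and 1.24. E2F2 was also scarce at 4 h (0.92 and 1.5 CPM) and in the controls (4.79 and 4.66 CPM). RBL1, a pocket protein, rose at 24 h (0.85) and fell at 48 h (-1.42), and CDKN1A, an inhibitor of cyclin-dependent kinases, rose at 24 h (0.63) and 48 h (1.44, SE 0.07). Of 16 mitosis genes, all 16 were lower at 4 h (median -1.01) and all 16 higher at 24 h (median 1.09), and at 48 h 14 were higher and 1 lower (median 0.68). The smallest p at 4 h were those of ANLN, PLK1, BUB1 and TPX2 (-1.19, -1.12, -1.10 and -0.96), though other mitosis genes fell further. KIF11 (1.47), ANLN (1.25), NUSAP1 (1.19) and TPX2 (1.18) had the smallest p at 24 h, and PLK1 (1.65), TPX2 (1.40), CDC20 (1.33) and CCNB2 (1.06) at 48 h. The replication genes and the mitosis genes thus stood on the same sides of the controls at 4 h and 24 h, with medians of -0.12 and 0.68 at 48 h. The difference between the lists, and the part of the share of cycling cells in any of these values, was not tested.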

How the data were processed

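Total RNA of 8 U87MG samples was sequenced, and the authors deposited 1 table of whole-number read counts per gene for each sample. Per the submitters' processing notes, Bowtie and the builds hg19 and GRCh37 were used; their roles, the counting program and its use of strand are not stated there. Samples were grouped by the labels' treatment and time. The counts were fitted with edgeR 4.0.16 (R 4.3.3): filterByExpr, TMM scaling, and a quasi-likelihood test over all 8 libraries with 4 residual degrees of freedom, adjusted by Benjamini-Hochberg over 14448 genes in each of 5 comparisons. The biological coefficient of variation was 7.15%. Replicates differed beyond counting noise (chi-square per degree of freedom 4.50 to 20.8), so none was counted as a copy. A further 28 names had been turned into dates and were kept in the library totals.

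The members, roles and other lists were chosen with earlier results of these data known. Per role, the genes described in full are those with the largest fall and rise among the called genes and any called against most of its role; of each other list, up to 4 called genes with the smallest p in each comparison with control, except 1 gene that is not reported here. Partners compared by count ratios were picked after their values were seen. Exon lengths, overlaps and pseudogenes came from GENCODE release 29 (GRCh38), and promoter windows from RefSeq (GRCh38.p14); both differ from the authors' build, so no coordinate of the counts is given. Alternatives were DESeq2 1.42.0, limma-voom (limma 3.58.1), other scalings and filters, a 2-fold minimum, a replicate block, fits of fewer groups and leaving out each library. The test was checked on simulated counts in which few genes changed, equally up and down. That check does not cover the scaling at 48 h, where 66.9% of all genes were called.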

Additional observations from a re-analysis of the deposited data

Results flagged for a closer look

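A result is listed here where a gene was called on opposite sides of the controls at 2 times and the step between those times was itself called and at least 2-fold. Values are log2 changes of that step by edgeR. How many of all 14448 genes meet this rule was not counted, so the numbers of genes listed are no result about the set. Of 34 genes called lower at 4 h and higher at 24 h, 28 met this rule between 4 h and 24 h. Origin licensing gave ORC1 (1.82), CDC6 (1.56) and CDT1 (1.40). The MCM2-7 helicase gave MCM3 (1.13), MCM5 (1.09) and MCM7 (1.21). Origin firing gave MCM10 (1.84), CDC45 (2.00), CDC7 (1.42), GINS1 (1.62), GINS2 (1.64) and GINS4 (1.31). Polymerases and primase gave POLA2 (1.28), POLD1 (1.10), POLD3 (1.23), POLE (1.12) and PRIM2 (1.15). The fork proteins gave RFC2 (1.17), RFC3 (1.15), RFC5 (1.09), LIG1 (1.52) and TIMELESS (1.27). Chromatin assembly gave CHAF1A (1.34) and CHAF1B (1.34). The nucleotide enzymes gave RRM1 (1.26), RRM2 (2.57), TYMS (1.58) and TK1 (1.76). Among these genes, the 4 h calls of CDC45, POLE, RFC2, RFC3, LIG1, RRM1 and TYMS were lost when some single library was left out. So were the 24 h calls of CDC7, POLD3 and CHAF1B.

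Of 20 genes called higher at 24 h and lower at 48 h, 16 met this rule between 24 h and 48 h, a step in which 66.8% of all genes were called. From origin licensing came ORC6 (-1.49) and CDC6 (-1.94). From the MCM2-7 helicase came MCM3 (-1.83) and MCM6 (-1.96). From origin firing came MCM10 (-3.51), CDC7 (-1.60), GINS1 (-3.08) and GINS4 (-1.45). From polymerases and primase came POLA2 (-1.39), POLD3 (-1.19), POLE (-1.23) and POLE2 (-1.85). From the fork proteins came PCNA (-1.37), RFC3 (-1.18) and FEN1 (-2.49). From chromatin assembly came CHAF1A (-1.31). In this second list, the 24 h calls of MCM6, CDC7, POLD3 and POLE2 were lost when some single library was left out. No nucleotide enzyme was among these 16, since all 5 were called higher at both times.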

How the results depend on the processing

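Leaving out each library in turn gave 0 to 1 members higher and 28 to 40 lower at 4 h, 33 to 44 higher and 0 lower at 24 h, and 10 to 15 higher and 20 to 22 lower at 48 h. It gave 42 to 44 higher and 0 lower from 4 h to 24 h, and 2 to 3 higher and 38 to 41 lower from 24 h to 48 h. Of the calls, 24 of 37 at 4 h, 31 of 40 at 24 h and 29 of 33 at 48 h were kept without any 1 library. With a minimum of 2-fold, 0 genes were lower at 4 h, 6 higher at 24 h, 0 higher and 7 lower at 48 h, 31 higher from 4 h to 24 h, and 0 higher and 19 lower from 24 h to 48 h. With library totals as the only scaling, 7 were higher at 48 h and 1 from 24 h to 48 h. That scaling turned 3 uncalled values into calls of the other sign: RPA3 (-0.21) and TIMELESS (-0.23) at 48 h, and SLBP from 24 h to 48 h (-0.21). The number called higher at 4 h became 1 (POLA1) with only the groups compared (adjusted p = 0.0124) and without the 48 h libraries (adjusted p = 0.00585). No member called in the fit of all libraries took the opposite sign under any alternative run.

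Samples of different groups share replicate numbers, but deviations of same-numbered samples correlated between -0.03 and 0.28, so the numbers were not taken to pair samples. With a replicate block, 1 gene (POLA1, adjusted p = 0.0223) was higher and 39 lower at 4 h, 41 higher at 24 h, and 14 higher and 22 lower at 48 h. The block gave 44 higher from 4 h to 24 h, and 3 higher and 40 lower from 24 h to 48 h. For the block and for the fits without 1 library, no share of all genes is set beside the counts. They show only how the members' calls moved with the fit. POLE2, at 1.96 to 8.06 CPM, had the largest SE of the 47 genes against control (0.21 to 0.25).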
